A study of Mus musculus with 6 samples.

Results

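The genes described here are 9 mouse DNA repair genes, *Rad23b*, *Xpc*, *Ddb1*, *Ddb2*, *Ercc1*, *Ercc2*, *Fanca*, *Fance* and *Fancg*, chosen by name and matched to the deposited tables by Ensembl gene identifier. All 9 were found among the 12134 genes of the intron tables. They had 113 of the 85015 introns listed in any library, 107 of which were listed in all 4 total RNA libraries and 98 of which had enough reads to be tested. RNA came from E14 mouse embryonic stem cells of the 129/Ola background, a pluripotent line kept in serum with leukaemia inhibitory factor, and was taken 24 hours after Lipofectamine 2000 transfection. One group received an siRNA against *Son*, which codes for a large nuclear speckle protein of the splicing machinery, and the other a control siRNA, so both groups were transfected. Total RNA depleted of ribosomal RNA was sequenced from 2 control and 2 *Son* knockdown cultures, and cDNA of polyadenylated RNA was read on a Nanopore instrument for 1 sample of each kind. Knockdown by siRNA lowers *Son* without removing it, and in RNA of whole cultures fewer expressing cells and less RNA per cell cannot be told apart.

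Nucleotide excision repair removes bulky lesions, such as those left by ultraviolet light, by cutting out a short single strand that holds the damage. XPC with RAD23B, and the DDB1-DDB2 complex, find lesions anywhere in the genome; the ERCC2 (XPD) helicase of the transcription factor TFIIH opens the DNA; and ERCC1 with its partner ERCC4 (XPF) cuts on the 5′ side of the lesion. The Fanconi anaemia pathway repairs crosslinks between the strands: a nuclear core complex that includes FANCA, FANCE and FANCG ubiquitinates FANCD2 and FANCI, and ERCC1-ERCC4 also acts in this pathway. In people, inherited loss of XPC, DDB2 or ERCC2 causes xeroderma pigmentosum, and that of FANCA, FANCE or FANCG causes Fanconi anaemia.

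The total RNA libraries held 10556187 to 16012286 split reads at 5′ junctions, that is, reads that cross an exon junction with the intron removed. *Son* had 283.0 and 314.1 spliced CPM (reads per 1000000 spliced reads of the library, scaled by edgeR's TMM factors) in the controls, against 93.5 and 102.1 in the knockdown. This is a log2 fold change of −1.61 (standard error 0.0869; edgeR's quasi-likelihood test, Benjamini-Hochberg adjusted p = 3.72e-10), in the direction of the labels. Of 12 embryonic stem cell markers, 11 were listed in all 4 libraries, with a summed level of 4885.8 to 5162.9 CPM. *Sox2* was not among them, as a gene enters these tables only through its introns. Markers of fibroblasts, endoderm, mesoderm and neuroectoderm summed to 1.16 to 4.72 CPM per list, with 1 or 2 genes of each list present. The labels do not say whether the 2 cultures of a group were set up separately, so p-values measure only the spread between these samples, which may be technical.

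The first comparison asked whether introns of the repair genes were spliced less completely after the knockdown. It rests on the splicing efficiency, the share of split reads among all reads at both junctions of an intron. Splicing of single introns in *Fanca* and *Ercc2* was lower after the knockdown, and no intron of the other 7 genes passed the test. Of 98 introns tested, 6 had a lower splicing efficiency in the knockdown, 3 in *Fanca* and 3 in *Ercc2*, where 1.71% of all 63309 introns tested were called lower, that is, had an adjusted p under 0.05. None of the 98 was called higher (0.0442% of all introns), with edgeR or with DESeq2. At an unadjusted p under 0.05, edgeR gave 25 introns lower and 1 higher, and DESeq2 15 lower and 0 higher. The test compares the odds of unsplit to split reads, and a positive log2 odds ratio stands for relatively more unsplit reads after the knockdown. Its median was 0.45 over the 98 introns, against 0.12 over all introns tested, and 72 of the 98 lay above 0.

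In 42 of the 98 introns (42.9%) both knockdown libraries were below both controls, which was also so for 24.3% of all introns tested. These 42 were unevenly spread: 24 of 33 tested introns in *Fanca*, 10 of 13 in *Ercc2*, 6 of 8 in *Fancg*, and 1 each in *Ercc1* and *Rad23b*. *Xpc*, *Ddb1*, *Ddb2* and *Fance* had none. Both knockdown libraries were above both controls in 10 of the 98 (10.2%), against 13.1% of all introns tested: 4 in *Ddb1*, 3 in *Ddb2*, 2 in *Xpc* and 1 in *Ercc2*. With separate scaling of split and unsplit reads the median of all introns went from 0.12 to −0.03, so changes near that size depend on the scaling.

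*Fanca* codes for a subunit of the Fanconi core complex and lies on the reverse strand of chromosome 8. Its 3 called introns follow one another, as introns 32, 33 and 34 of the 42 in the coding transcript ENSMUST00000035495. They lie at chr8:124001313-124001870 (558 nt), chr8:124001136-124001206 (71 nt) and chr8:124000992-124001075 (84 nt) in the coordinates of the tables (GRCm39 per the submitters' processing notes). All interrupt the coding sequence of 1439 codons, intron 32 within the codon after 1073 and introns 33 and 34 after codons 1109 and 1129. The spliced exon sequence across these junctions, 25 bases of each exon from the GENCODE M21 transcripts (GRCm38), is the sequence a split read shows and an unsplit read lacks. Capitals mark the last 3 bases of one exon and the first 3 of the next, between which the intron is removed.
Fanca intron 32: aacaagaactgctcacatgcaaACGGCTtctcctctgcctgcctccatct
Fanca intron 33: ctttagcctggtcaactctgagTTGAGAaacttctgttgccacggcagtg
Fanca intron 34: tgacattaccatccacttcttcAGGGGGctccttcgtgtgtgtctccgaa

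Intron 33 was the least spliced of the 3 in the knockdown. Its splicing efficiency was 0.864 and 0.857 in the controls, against 0.490 and 0.315 in the knockdown, so that in the second knockdown library most junction reads ran into the intron. The controls gave 39 and 31 unsplit beside 248 and 186 split reads, and the knockdown gave 126 and 115 unsplit beside 121 and 53 split reads. Both parts moved, with 0.391 times the split and 3.55 times the unsplit CPM of the controls. The log2 odds ratio was 3.18 (standard error 0.488; edgeR quasi-likelihood test, adjusted p = 1.88e-06).

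Intron 34 had splicing efficiencies of 0.928 and 0.878 in the controls, against 0.605 and 0.502 in the knockdown. Its log2 odds ratio was 2.94 (standard error 0.442; edgeR quasi-likelihood test, adjusted p = 1.4e-06). Intron 32, the longest of the 3, had 0.887 and 0.80 in the controls, against 0.582 and 0.484 in the knockdown, with a log2 odds ratio of 2.29 (standard error 0.558; edgeR adjusted p = 0.00813). In each of these introns the 2 knockdown libraries lay below both controls by more than the replicates differed. At either junction alone, introns 33 and 34 were called and intron 32 was not (edgeR adjusted p = 0.327 at 5′ and 0.0547 at 3′). Introns 33 and 34 were called whichever library was left out. Intron 32 was not called without control replicate 1 (log2 odds ratio 1.79, edgeR adjusted p = 0.515), without knockdown replicate 2 (2.03, adjusted p = 0.0606) or with DESeq2 (adjusted p = 0.139).

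The called introns were picked by their fall in splicing efficiency. The other 30 *Fanca* introns listed in all 4 libraries lost less, which that choice builds in. Their pooled splicing efficiency was 0.934 and 0.921 in the controls, against 0.888 and 0.864 in the knockdown. The 3 called introns together went from 0.899 and 0.858 to 0.562 and 0.441. Of the 33 *Fanca* introns tested, 31 had a log2 odds ratio above 0 and 12 an unadjusted p under 0.05, and the median was 0.94. The tested introns on either side of the called ones were closer to the controls. On one side intron 35 (1715 nt) had 0.932 and 0.914 in the controls, against 0.893 and 0.846 in the knockdown. On the other, an intron of the noncoding transcript ENSMUST00000155510 (chr8:124002044-124003288, 1245 nt) had 0.887 and 0.713 against 0.744 and 0.789, with overlapping groups, and the next one, intron 30 (2847 nt), had 0.911 and 0.875 against 0.839 and 0.823. A short intron whose groups overlapped was intron 19 (76 nt), singled out after its values were seen, which had 0.956 and 0.989 in the controls, against 0.980 and 0.971 in the knockdown. The protein-coding model Gm20388 spans *Fanca* on the opposite strand without an exon over the called introns. The protein-coding gene *Zfp276*, also on the opposite strand, has exons over introns 40, 41 and 42. These are among the other 30 introns and enter the sums per gene. The labels do not state whether reads were counted by strand, so the part of RNA from Gm20388 and *Zfp276* in the reads was not tested.

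*Ercc2* codes for the XPD helicase that unwinds DNA around a lesion and lies on the forward strand of chromosome 7. Its 3 called introns lie near the start of the gene, as introns 3, 4 and 6 of the 22 in the coding transcript ENSMUST00000062831. They are at chr7:19117947-19118023 (77 nt), chr7:19118087-19118226 (140 nt) and chr7:19119665-19119754 (90 nt) and follow codons 61, 82 and 159 of 760. Their exon junctions are shown as for *Fanca*, with the bases that flank the removed intron in capitals.
Ercc2 intron 3: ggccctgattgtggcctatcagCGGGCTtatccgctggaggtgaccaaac
Ercc2 intron 4: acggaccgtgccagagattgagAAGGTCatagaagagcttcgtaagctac
Ercc2 intron 6: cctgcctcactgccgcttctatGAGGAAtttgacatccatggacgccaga

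Intron 4 had the steadiest fall. Its splicing efficiency was 0.899 and 0.919 in the controls, against 0.646 and 0.644 in the knockdown, with a log2 odds ratio of 2.43 (standard error 0.59; edgeR quasi-likelihood test, adjusted p = 0.00789). Intron 6 went from 0.942 and 0.917 to 0.735 and 0.786, a log2 odds ratio of 2.07 (standard error 0.581; edgeR adjusted p = 0.0336). Intron 3 went from 0.982 and 0.989 to 0.935 and 0.745, a log2 odds ratio of 3.31 (standard error 0.917; edgeR adjusted p = 0.0303).

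The knockdown libraries lay below both controls in all 3 of these introns, but in intron 3 the 2 knockdown libraries were far apart. That intron rests on few unsplit reads, 3 and 1 in the controls, against 6 and 12 in the knockdown, all of them at its 3′ junction. The *Ercc2* calls were less stable than those in *Fanca* introns 33 and 34: DESeq2 gave adjusted p values of 0.246, 0.0954 and 0.232 for introns 3, 4 and 6. At single junctions none of the 3 was called. Intron 4 had edgeR adjusted p = 0.0709 at 5′ and 0.237 at 3′, and intron 6 had 0.688 and 0.0973. Intron 3 had 0.0876 at 3′, and 0.0615 with split and unsplit reads scaled separately. Leaving out control replicate 1 (edgeR adjusted p = 0.346, 0.207 and 0.537) or control replicate 2 (0.232, 0.141 and 0.151) ended all 3 calls, knockdown replicate 2 that of intron 3 (0.557), and knockdown replicate 1 that of intron 6 (0.111).

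The other 11 *Ercc2* introns together went from 0.926 and 0.915 to 0.863 and 0.852, and the 3 called ones from 0.939 and 0.936 to 0.762 and 0.724. Here too the called introns were picked by the fall itself. Intron 13 (72 nt) was not called but fell outside the controls, with 0.836 and 0.832 in the controls, against 0.642 and 0.567 in the knockdown. Intron 15 (1026 nt) went the other way, with 0.934 and 0.878 in the controls, against 0.968 and 0.972 in the knockdown, and was the 1 intron of all 98 with a higher splicing efficiency at an unadjusted p under 0.05. These 2 introns were singled out after their values were seen. The antisense gene Gm26852 overlaps *Ercc2* on the opposite strand. It has exons over introns 13 and 15 but none over the 3 called introns, and its part in the reads was not tested.

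**Figure D1:**
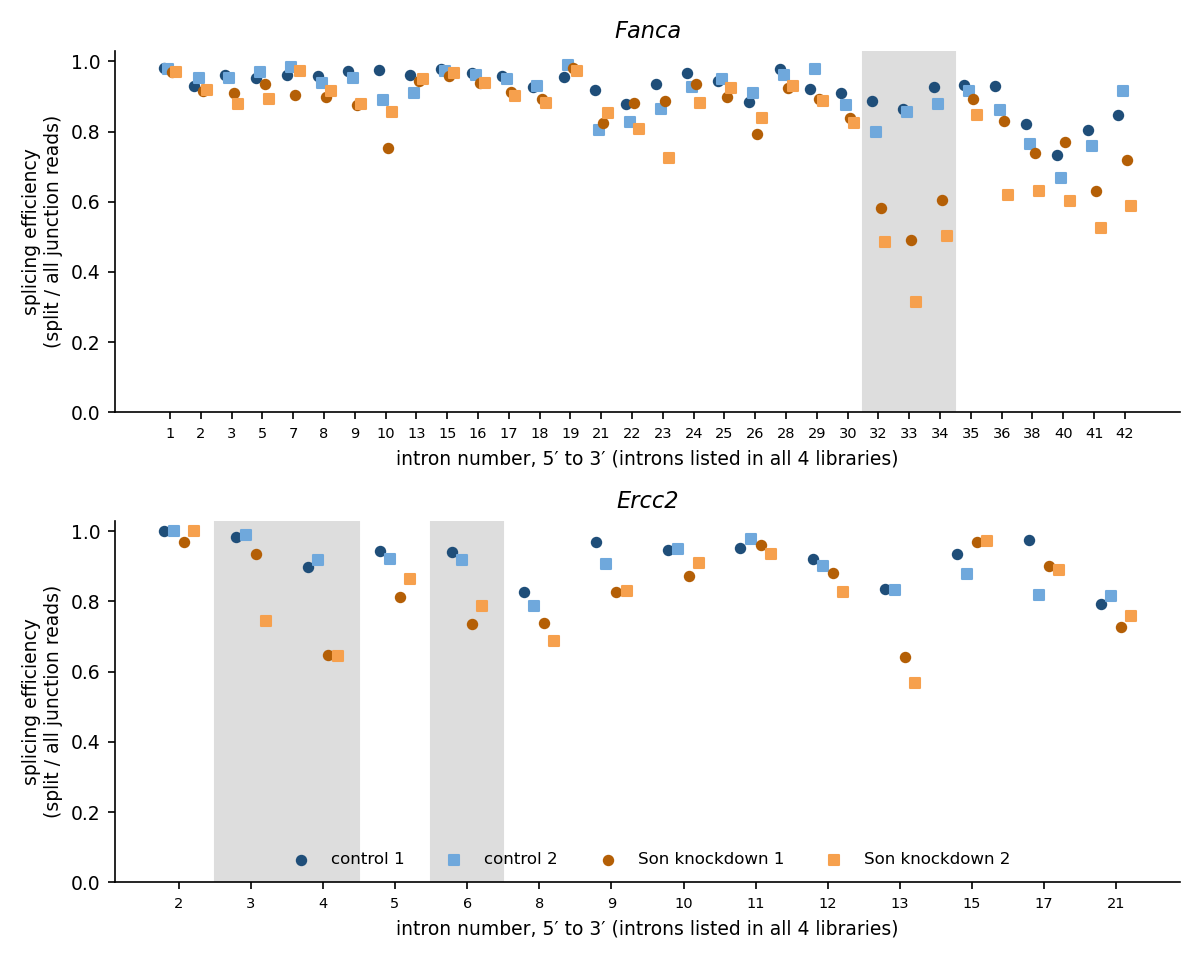
Splicing efficiency (split reads over all junction reads, from 0 to 1) of the introns of *Fanca* (ENSMUST00000035495) and *Ercc2* (ENSMUST00000062831) listed in all 4 libraries, in order from 5′ to 3′. Circles are replicate 1 and squares replicate 2 of the control (blue) and *Son* knockdown (orange) total RNA libraries. Grey bands mark the 3 called introns of each gene, where *Fanca* intron 33 reaches 0.490 and 0.315 in the knockdown. Of the tested introns that were not called, 21 of 30 in *Fanca* and 7 of 10 in *Ercc2* also had both knockdown libraries below both controls. The 30 include the *Fanca* intron of ENSMUST00000155510, which is not drawn.

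*Fancg*, another core complex subunit that binds FANCA directly, lies on chromosome 4 and had no single intron called. Over its 9 introns listed in all 4 libraries, the pooled splicing efficiency was 0.912 and 0.933 in the controls, against 0.866 and 0.851 in the knockdown. All 8 tested introns had a log2 odds ratio above 0 (the lowest printed as 0.00), 3 of them with an unadjusted p under 0.05, and the median was 0.98. Intron 6 of 13 (87 nt, chr4:43006897-43006983) had the largest fall among its introns with 50 or more reads in every library. It had 0.876 and 0.892 in the controls, against 0.80 and 0.722 in the knockdown, with a log2 odds ratio of 1.23 (standard error 0.616; edgeR adjusted p = 0.505).

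*Fance*, the core complex subunit that contacts FANCD2, had only 3 introns tested, and the groups overlapped in all 3. Its pooled splicing efficiency was 0.968 and 0.930 in the controls, against 0.955 and 0.938 in the knockdown. Intron 2 of 9 (671 nt) had 1.000 and 0.955 in the controls, against 0.985 and 0.962 in the knockdown, so the groups overlapped.

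*Ercc1*, the partner of the XPF nuclease, had 2 introns in all 4 libraries. Its intron 6 of 9 (1620 nt, chr7:19086631-19088250) had 0.908 and 0.886 in the controls, against 0.786 and 0.741 in the knockdown, with a log2 odds ratio of 1.43 (standard error 0.678; edgeR adjusted p = 0.446). Intron 1, in the 5′ UTR, had 0.980 and 1.000 in the controls, against 0.899 and 0.991 in the knockdown, where the groups overlapped. Neither passed the test.

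None of the damage recognition genes had an intron called. *Xpc*, on chromosome 6, had pooled efficiencies of 0.944 and 0.940 in the controls, against 0.946 and 0.954 in the knockdown over 13 introns, so that both knockdown libraries lay slightly above the controls. Among its introns with 50 or more reads in every library, the largest downward difference was in intron 4 of 15, which had 0.978 and 0.971 against 0.969 and 0.971. *Rad23b*, which codes for the partner that stabilises XPC, had 0.959 and 0.957 in the controls, against 0.960 and 0.951 in the knockdown over 7 introns, and its intron 8 of 9 had 0.970 and 0.947 against 0.960 and 0.929.

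*Ddb1*, which codes for the partner of the lesion-binding DDB2 and the adaptor of CUL4 ubiquitin ligases, was the best spliced of the 9, with 0.987 and 0.986 in the controls, against 0.988 and 0.985 in the knockdown over 20 introns. Its intron 18 of 26 (1085 nt) had 0.970 and 0.961 in the controls, against 0.961 and 0.932 in the knockdown, with a log2 odds ratio of 0.62 (standard error 0.305; edgeR adjusted p = 0.489). *Ddb2*, the UV lesion sensor, was the least spliced in every library, with 0.740 and 0.604 in the controls, against 0.718 and 0.705 in the knockdown over 6 introns. Its intron 8 had 0.217 and 0.245 in the controls, against 0.317 and 0.281 in the knockdown (log2 odds ratio −0.52, edgeR adjusted p = 0.946), and intron 9 had 0.294 and 0.313 against 0.412 and 0.407 (−0.66, adjusted p = 0.908). In both, the knockdown libraries lay above the controls, and the difference in intron 9 was the largest rise among the 98 introns, but neither passed the test. Exons of *Acp2* lie over introns 7 to 9 on the opposite strand, and the part of *Acp2* RNA in their reads was not tested. Introns 8 and 9 enter the pooled value of *Ddb2*, so its place as the least spliced gene rests partly on them. Away from the *Acp2* exons, intron 5 of 9 (76 nt) had 0.905 and 0.779 in the controls, against 0.912 and 0.765 in the knockdown.

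Intron length and exon base composition, which the choice of genes did not use, were set beside the falls in splicing efficiency. The called introns measured 71 to 558 nt, where the median was 633.5 nt over the 98 member introns and 1128.0 nt over all introns tested. Of the 14 member introns of at most 100 nt, 4 were called, and of the 4253 such introns in all genes 352 were called (8.28%). Base composition was measured as the GC content of up to 100 bases of exon on each side. Its median by gene was 62.5% in *Fance*, 57.8% in *Ercc1*, 56.5% in *Ercc2*, 55.2% in *Fancg* and 54.5% in *Fanca*. It was 51.5% in *Xpc*, 50.5% in *Rad23b*, 49.5% in *Ddb1* and 48% in *Ddb2*, close to the 50.5% of all introns tested. The called introns had 57%, 56% and 51.5% in *Fanca* (introns 32, 33 and 34). In *Ercc2* they had 56%, 53% and 60% (introns 3, 4 and 6). *Fanca* intron 34 and *Ercc2* intron 4 were thus below the median of their own gene.

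All 3 genes with a lower splicing efficiency per gene are thus among the 5 of higher exon GC, as is *Fance*, whose groups overlapped. Over all genes, the 1084 introns called lower had a median exon GC of 56.5% and a median length of 131.0 nt. *Ddb1* had 3 tested introns of at most 100 nt and none was called, while *Ercc2* had 2 of 5 and *Fanca* 2 of 4. The part of intron length and base composition in these differences was not tested.

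**Figure D2:**
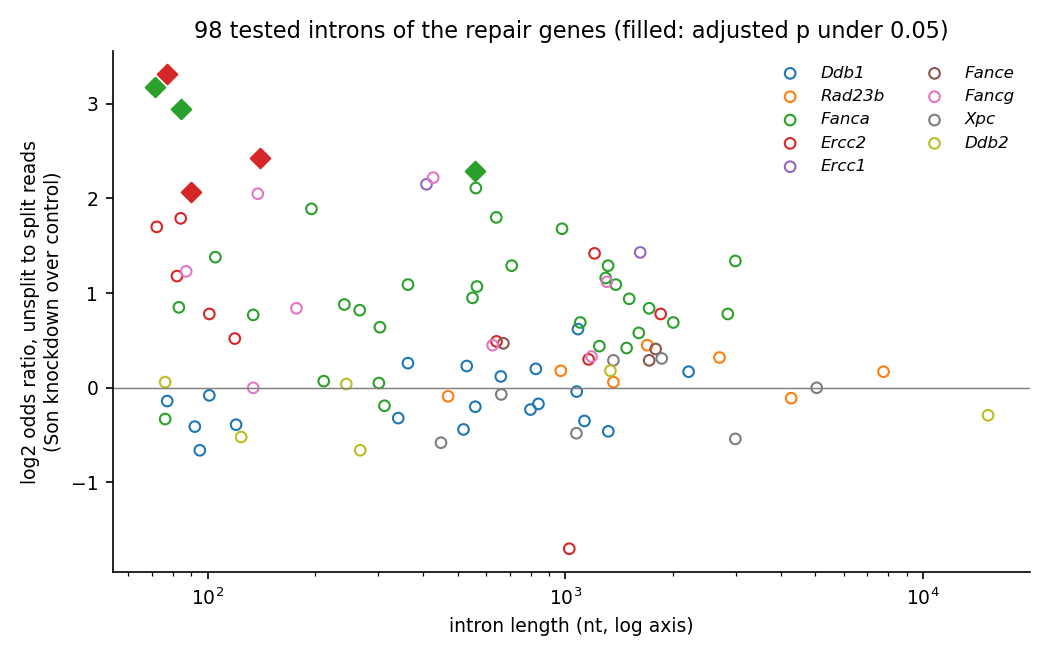
Log2 odds ratio of unsplit to split reads (*Son* knockdown over control) against intron length (nt, log axis) for the 98 tested introns of the 9 genes, coloured by gene; filled diamonds are the 6 introns with an adjusted p under 0.05. The called introns of *Fanca* and *Ercc2* lie between 71 and 558 nt with log2 odds ratios of 2.07 to 3.31, while *Ddb1*, *Rad23b* and *Xpc* scatter around 0.

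Summing reads over the introns of a gene gave 1 test per gene. *Fanca*, *Ercc2* and *Fancg* had a lower splicing efficiency in the knockdown, 3 of 9 genes, where 6.98% of 9370 genes tested were called lower and 0.128% higher. *Fanca* went from 0.931 and 0.915 to 0.857 and 0.819, a log2 odds ratio of 1.22 (standard error 0.224; edgeR adjusted p = 3.96e-06). *Ercc2* went from 0.929 and 0.919 to 0.846 and 0.827, a log2 odds ratio of 1.25 (standard error 0.261; edgeR adjusted p = 8.04e-05). In both genes the knockdown libraries lay below the controls by more than the replicates of a group differed.

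*Fancg*, with the values given above, had a log2 odds ratio of 0.96 (standard error 0.317; edgeR adjusted p = 0.0364), and *Ercc1*, from 0.943 and 0.947 to 0.851 and 0.904, one of 1.27 (standard error 0.542; adjusted p = 0.189). The *Ercc1* difference was as large but rested on few reads, 39 and 16 unsplit in the knockdown. Of these, intron 1 gave 15 and 1, all at its 3′ junction, against 3 and 0 unsplit reads in the controls. The other 5 genes had log2 odds ratios of −0.23 to 0.11. The *Fancg* call was marginal and was lost with DESeq2 (adjusted p = 0.093) and with limma. It did not hold at either junction alone, without the intron with the most unsplit reads, or with split and unsplit reads scaled separately. It was also lost without control replicate 1 (0.189), control replicate 2 (0.557) or knockdown replicate 2 (0.194), and those of *Fanca* and *Ercc2* were lost only without control replicate 1 (0.0549 and 0.084) and with limma (0.164 and 0.134) among the alternatives run.

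Spliced RNA was lower in a pair of genes. Of the 9, *Ercc2* and *Fanca* had fewer spliced reads in the knockdown, where 6.76% of 9474 genes tested had fewer, and none had more, where 1.96% of all genes had more (0 at an unadjusted p under 0.05 with edgeR, and 0 with DESeq2). *Ercc2* had 85.8 and 85.6 spliced CPM in the controls, against 54.5 and 55.2 in the knockdown. The replicates were nearly equal and the groups far apart. Its log2 fold change of −0.65 (standard error 0.101; edgeR adjusted p = 0.000174) corresponds to 0.639 times the control level. *Fanca* had 302.2 and 292.8 spliced CPM in the controls, against 225.0 and 198.7 in the knockdown, a log2 fold change of −0.49 (standard error 0.0804; edgeR adjusted p = 0.000292), or 0.713 times the control level. When each gene was counted by its best covered intron alone, the sizes were alike but both calls ended (*Ercc2* −0.64, adjusted p = 0.0633; *Fanca* −0.46, adjusted p = 0.0982).

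The other Fanconi genes did not pass the test. *Fancg* had 31.0 and 37.0 spliced CPM in the controls, against 24.7 and 31.2 in the knockdown (log2 fold change −0.29, standard error 0.147, edgeR adjusted p = 0.295). Its groups overlapped, and it passed the test only without knockdown replicate 2 (−0.45, edgeR adjusted p = 0.0225). *Fance* had 10.7 and 12.5 in the controls, against 13.4 and 13.3 in the knockdown (log2 fold change 0.21, edgeR adjusted p = 0.598), with both knockdown libraries above the controls.

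Among the excision genes, *Ercc1* had 9.89 and 7.05 spliced CPM in the controls, against 7.45 and 7.32 in the knockdown (log2 fold change −0.22, edgeR adjusted p = 0.676). *Xpc* had 33.8 and 31.7 in the controls, against 39.4 and 31.3 in the knockdown (0.12, adjusted p = 0.714). *Rad23b* had 542.1 and 533.5 against 561.1 and 527.7 (0.02, adjusted p = 0.929). In these 3 genes the groups overlapped. *Ddb1* had 2677.6 and 2691.0 in the controls, against 2696.9 and 2958.8 in the knockdown (0.08, edgeR adjusted p = 0.566), with both knockdown libraries above the controls. It passed the test only without knockdown replicate 1 (0.14, edgeR adjusted p = 0.00129). *Ddb2* had 15.6 and 11.7 against 13.7 and 17.4 (0.16, adjusted p = 0.719), again with overlap.

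**Figure D3:**
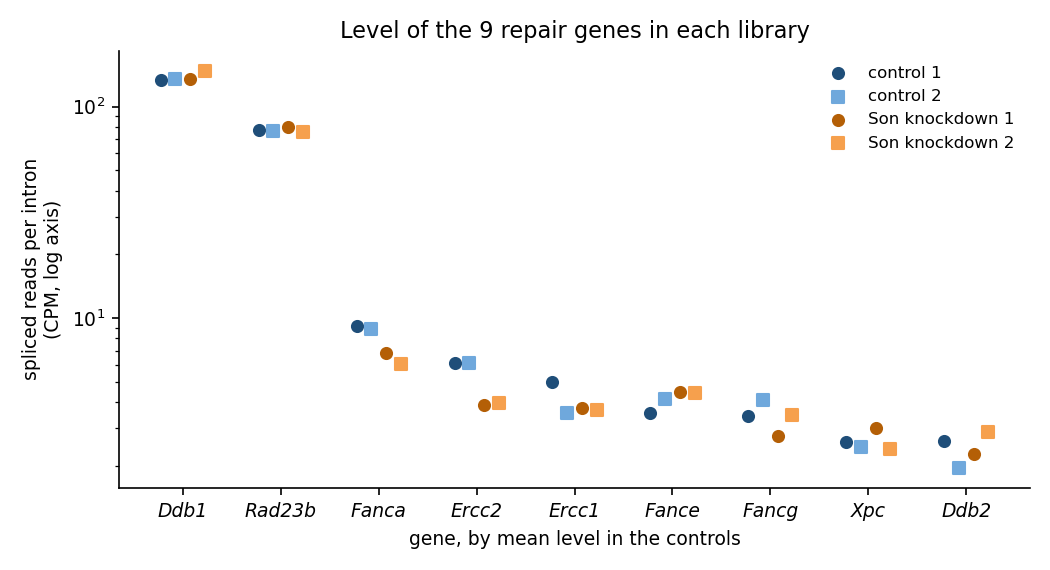
Spliced reads per intron (CPM, log axis) of the 9 genes in each of the 4 total RNA libraries, ordered by the mean of the controls; circles are replicate 1 and squares replicate 2. *Ercc2* and *Fanca* are the genes whose knockdown points (orange) lie clearly below both control points (blue).

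Levels of different genes were compared as spliced reads per intron, since each junction offers a read a window of the same size whatever the gene's length. In the controls *Ddb1* was highest with 134.2 ± 0.474 CPM per intron (SD, n = 2), followed by *Rad23b* with 76.8 ± 0.869. *Fanca* followed at a much lower 9.01 ± 0.201, then *Ercc2* at 6.12 ± 0.00997. *Ercc1* (4.24 ± 1.00), *Fance* (3.86 ± 0.423) and *Fancg* (3.78 ± 0.469) came next and did not differ beyond their spread. *Xpc* (2.52 ± 0.112) and *Ddb2* (2.28 ± 0.466) were lowest and did not differ beyond theirs. In the knockdown *Fanca* was at 6.42 ± 0.564, *Fance* at 4.44 ± 0.0159 and *Ercc2* at 3.92 ± 0.0337, so that *Fance* stood above *Ercc2* there and below it in the controls. These levels average few introns in some genes, 2 in *Ercc1* and 3 in *Fance*, against 33 in *Fanca* and 14 in *Ercc2*. In the single long-read control library *Ddb1* (227.6 CPM) and *Rad23b* (122.7) were again highest. There, however, *Ercc1* (25.6) stood above *Fanca* (12) and *Ercc2* (5.84).

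Unsplit reads at 5′ junctions were tested on the scale of the spliced reads, to show whether the lower efficiencies came with more intron-containing reads. None of the 7 genes with enough reads was called, where 1.53% of 7623 genes had more unsplit reads and 0.0394% fewer. At an unadjusted p under 0.05, edgeR gave 3 genes with more unsplit reads, *Fanca*, *Fancg* and *Ercc2*, and 0 with fewer, and DESeq2, which called none either, gave 1 and 0. *Fanca* had 22.2 and 29.3 unsplit CPM in the controls, against 36.1 and 43.7 in the knockdown (log2 fold change 0.63, standard error 0.256, edgeR adjusted p = 0.273). *Fancg* had 2.59 and 2.51 against 4.07 and 5.20 (0.85, adjusted p = 0.291), and *Ercc2* had 5.37 and 6.86 against 8.13 and 10 (0.57, adjusted p = 0.481).

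In these 3 genes both knockdown libraries were above both controls, while *Ddb1* (20.9 and 26.2 against 17.0 and 30.0) and *Rad23b* (27.9 and 25.4 against 26.3 and 31.1) overlapped. So did *Ddb2* (5.04 and 7.25 against 4.68 and 7.32). *Xpc* went the other way, with 2.13 and 1.93 in the controls, against 1.63 and 0.963 in the knockdown (log2 fold change −0.62, edgeR adjusted p = 0.817). The *Fanca* rise passed the test when unsplit reads were scaled by their own TMM factors (0.52, edgeR adjusted p = 0.0331). Within the 6 called introns, split CPM was 0.391 to 0.525 times and unsplit CPM 2.05 to 5.37 times the control level. These introns were picked by the change in their odds of unsplit to split reads.

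By splicing efficiency per gene in the 4 libraries, the genes closest to *Fanca* among the 9370 tested were *Maz* (Euclidean distance 0.00921), *Grk6* (0.00953) and *Ercc2* (0.0141). *Maz* had 0.940 and 0.917 in the controls, against 0.857 and 0.821 in the knockdown.

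The rest of both pathways was read from fixed lists. Of 30 other nucleotide excision repair genes, 29 were tested for spliced reads, and 6 fell (6.76% of all genes) and 1 rose (1.96% of all). DESeq2 called 5 with fewer and 0 with more. Splicing efficiency per gene was lower in 5 of 30 (6.98% of all genes), and 12 of 292 introns were called lower (1.71% of all introns), where DESeq2 called 3. No intron or gene was called higher with edgeR or DESeq2, with 2 and 0 introns, and 0 genes, higher at an unadjusted p under 0.05. The median log2 change of these genes in spliced reads was −0.02, against 0.01 over all genes tested, and their median log2 odds ratio per gene was 0.16, against 0.09. The 5 falls with the smallest p were *Pold1* (the catalytic subunit of DNA polymerase delta, −0.86), *Xrcc1* (the scaffold that brings in DNA ligase III, −0.67), *Xab2* (an XPA-binding splicing factor, −0.50), *Lig3* (DNA ligase III, −0.55) and *Pole* (the catalytic subunit of DNA polymerase epsilon, −0.34). *Gtf2h3*, a TFIIH subunit, was the gene that rose with edgeR (0.30, adjusted p = 0.04), a call that DESeq2 did not make, and was named after its value was seen. Another TFIIH subunit, *Gtf2h4*, had a lower splicing efficiency (log2 odds ratio 1.31, edgeR adjusted p = 0.000746) without a called change in spliced reads (−0.21, adjusted p = 0.322).

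Of 27 other Fanconi and crosslink repair genes, 26 were tested for spliced reads, and 5 fell (6.76% of all genes), where DESeq2 called 4. None rose with edgeR or DESeq2, where 2 genes were higher at an unadjusted p under 0.05 with either tool. Splicing efficiency per gene was lower in 3 of 25 (6.98% of all genes), and 5 of 227 introns were called lower, near the 1.71% of all introns, where DESeq2 called 1. The median log2 change in spliced reads was −0.11, against 0.01 over all genes tested, and the median log2 odds ratio per gene was 0.13, against 0.09. The 5 that fell were *Uhrf1* (a chromatin protein that senses crosslinks, −0.66), *Faap100* (a core complex subunit, −1.16), *Mad2l2* (REV7 of translesion synthesis, −0.66), *Fanci* (−0.29) and *Fancd2* (−0.25). *Fanci* and *Fancd2* form the complex that the core complex ubiquitinates. *Faap100* had 13 and 13.2 spliced CPM in the controls, against 6.10 and 5.58 in the knockdown (edgeR adjusted p = 0.000689). Its splicing efficiency per gene went from 0.878 and 0.877 to 0.689 and 0.701 (log2 odds ratio 1.65, adjusted p = 0.00235).

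**Figure D4:**
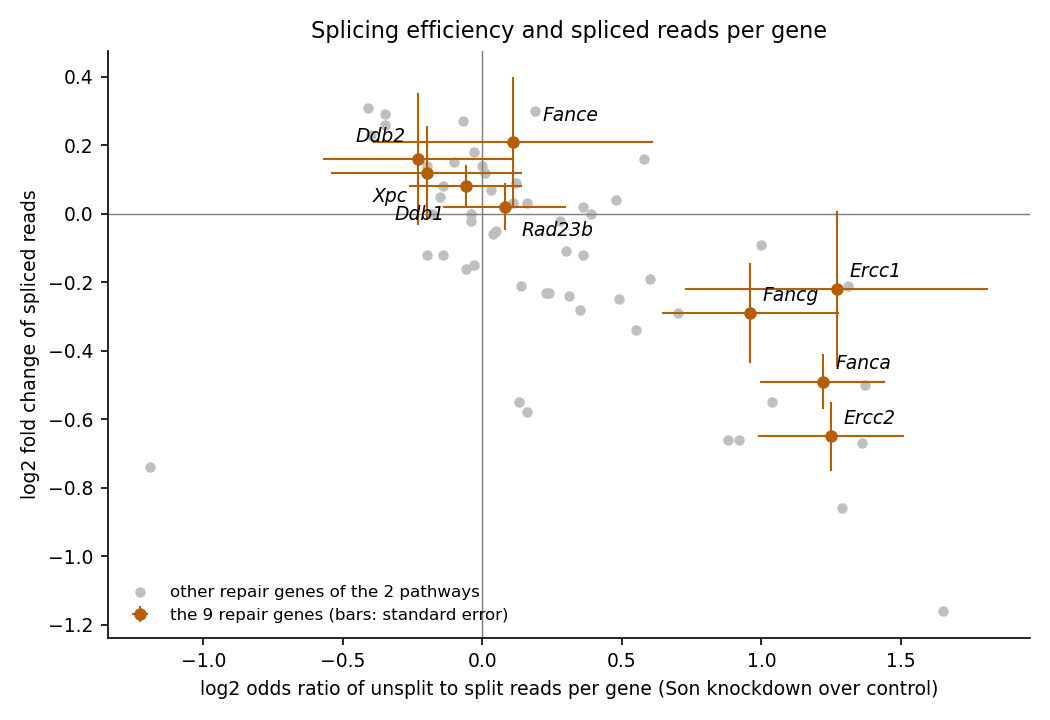
Log2 fold change of spliced reads against the log2 odds ratio of unsplit to split reads per gene (*Son* knockdown over control, 2 libraries each) for the 9 genes (orange, bars are standard errors) and the genes counted from both pathway lists (grey). *Ercc2* and *Fanca* lie at the lower right, and *Rad23b*, *Ddb1*, *Xpc*, *Ddb2* and *Fance* lie near the origin.

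The long reads gave a second view of mature RNA, with 3080426 reads in the control and 1874851 in the knockdown library, 1 library each and so no replicate check or test. *Son* itself had 217 and 37 reads. The description of the long-read control names a knockdown sample as its starting material, so its tie to the total RNA cultures is unclear. All 9 genes had at least 20 reads over both libraries, and 3 were lower by 2-fold or more, *Ercc2*, *Fancg* and *Fance*, where 4.16% of 9618 such genes were lower and 2.2% higher by that much. With a pseudocount of 5 reads in place of 0.5, none of the 3 reached 2-fold.

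*Ercc2* had 18 reads in the control and 3 in the knockdown library, a ratio of 0.274 in CPM (95% exact interval 0.0517 to 0.938, for counting error only). *Fancg* had 29 and 7 reads, a ratio of 0.397 (0.147 to 0.925), and *Fanca* 37 and 13, a ratio of 0.577 (0.282 to 1.11). *Fance*, which did not fall in total RNA, had 16 and 4 reads, a ratio of 0.411 (0.0999 to 1.27). For *Fanca* and *Fance* the intervals include equal levels, so a difference was not detectable at this depth.

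*Rad23b* had 378 and 159 reads, or 122.7 CPM (95% Wilson interval 110.9 to 135.7) in the control and 84.8 (72.6 to 99.1) in the knockdown library, a ratio of 0.691 (0.571 to 0.834), while its spliced reads in total RNA had overlapping groups. It was the 1 gene of the 9 whose Wilson intervals lay apart, as they did for 5.99% of the 9618 genes lower and 4.26% higher in the knockdown library. Its main transcript ENSMUST00000030134 had 349 and 145 reads. *Ddb1* had 701 and 436 reads, a ratio of 1.02 (0.905 to 1.15), close to its total RNA. *Ercc1* (79 and 39 reads, ratio 0.811, 0.538 to 1.20), *Ddb2* (27 and 14, ratio 0.852, 0.413 to 1.68) and *Xpc* (19 and 16, ratio 1.38, 0.665 to 2.84) had intervals that include equal levels.

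**Figure D5:**
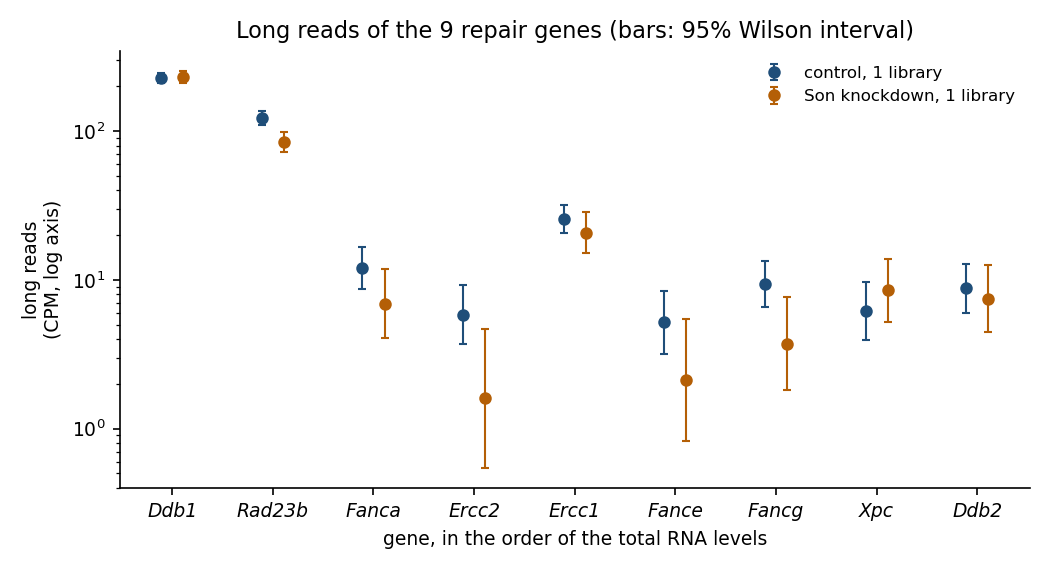
Long reads (CPM, log axis) of the 9 genes in the single control (blue) and single *Son* knockdown (orange) Nanopore library, with 95% Wilson intervals that cover counting error only. *Rad23b* is the gene of the 9 whose intervals do not overlap, which was so for 5.99% of all genes in that direction, and the low counts of *Ercc2*, *Fance* and *Fancg* leave wide intervals.

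Reads on transcripts annotated as retaining an intron were few. *Ercc1* had 2 of 79 such reads in the control (2.53%, 95% Wilson interval 0.697 to 8.77) and 5 of 39 in the knockdown library (12.8%, 5.60 to 26.7). *Fancg* had 4 of 29 (13.8%, 5.50 to 30.6) and 3 of 7 (42.9%, 15.8 to 75), and *Fanca* had 5 of 37 (13.5%, 5.91 to 28) and 2 of 13 (15.4%, 4.33 to 42.2). The intervals overlap in all 3 genes, which does not by itself show equal shares, and no test was run on these few reads. *Ddb1*, with many more reads, had 3.14% (2.08 to 4.71) and 2.98% (1.75 to 5.03).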

How the data were processed

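The 9 genes, the pathway and marker lists and the tests were chosen with earlier results of these data known. For total RNA the authors ran SPLICE-q, per the labels, and deposited 1 table per library. It gives, for every intron, read counts by junction (5′ and 3′) and kind (split or unsplit). The deposited score, a fraction from 0 to 1, was checked to equal split reads over all junction reads. Every listed junction had at least 10 reads. An intron that another transcript's exon touches on the same strand was hardly ever listed (0.0965%). Introns under exons of genes on the opposite strand were listed, as given above. For long reads the authors deposited counts per transcript. GRCm39, minimap2 and SAMtools appear in the submitters' processing notes; the settings, the annotation and whether reads were counted by strand are not given in the sources used here.

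Introns were reduced to 1 entry each, and those listed in all 4 libraries were used. Introns listed under more than 1 gene (681) were left out of sums per gene. Of 83936 introns, 99.59% had the length but 2.47% the position of GENCODE M21 (GRCm38), which gave names, transcript types, overlaps and exon sequences by identifier. Intron sequences were not used here.

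Split and unsplit reads entered the edgeR 4.0.16 quasi-likelihood test (R 4.3.3) with library terms, an unsplit-read term and, as the tested term, its interaction with the knockdown, over introns or genes with at least 10 split and 10 unsplit reads. A read across an intron counts at both junctions, so single junctions were also tested. Spliced reads per gene (split reads at 5′ junctions) used TMM and edgeR's expression filter, and unsplit reads the same scale; *Ercc1* and *Fance* did not pass that filter. P-values were adjusted by Benjamini-Hochberg over all introns or genes with a threshold of 0.05, and standard errors are the log2 value over the root of F. Long-read genes past 2-fold were counted by log2 ratios with a pseudocount of 0.5 reads. The printed long-read ratios are of CPM without a pseudocount, and intervals (scipy 1.17.1) are 95%. Alternatives were DESeq2 1.42.0, limma 3.58.1 on log odds (pseudocount 0.5), other filters and scalings, single junctions, a replicate block and leaving out each library. Data were also simulated with a fixed spread between libraries that was not estimated from these libraries. On them the intron test recovered 59% of introns with a log2 odds ratio of 2 and 25.3% of those with −2 among 62134. In that setting lower efficiencies were thus found more readily than higher ones, and 0.00161% of unchanged introns were called. These shares hold for the simulated spread and do not measure the error rate in the real libraries.

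All 9 genes are named, as are their called introns and, in a gene with none, the largest fall among introns covered by 50 or more reads per library; of each pathway list, up to 5 called genes with the smallest p, and the 3 genes closest to the member with the lowest adjusted p. Of the excision repair list, 1 gene is not reported here and was left out of the list's counts and medians.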

Additional observations from a re-analysis of the deposited data

How the results depend on the processing

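Of 6 introns called lower, DESeq2 kept a count of 2, either junction alone 2, limma 0 (19 at an unadjusted p under 0.05; limma called 0 of all 63309 introns and 0 of 9370 genes), and leaving out a library gave 2 to 7. Of 3 genes called lower in splicing efficiency, limma gave 0 (4 at an unadjusted p under 0.05) and leaving out a library 0 to 3. Genes with fewer spliced reads numbered 2 in the main test, 0 with the best covered intron only and 2 to 3 without a library; genes with more numbered 0 to 1. Genes with more unsplit reads went from 0 to 1 with TMM on the unsplit reads. The 3 long-read genes lower by 2-fold went to 0 with a pseudocount of 5 reads. The cause was not tested.

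Some values that did not pass the test changed sign. They were 0.45 (*Rad23b* intron 8), 0.06 (*Ddb2* intron 5) and 0.47 (*Fance* intron 2) as reported; per gene −0.23 (*Ddb2*), 0.11 (*Fance*), −0.06 (*Ddb1*), 0.08 (*Rad23b*) and −0.20 (*Xpc*); for spliced reads 0.16 (*Ddb2*), −0.22 (*Ercc1*), 0.21 (*Fance*), 0.02 (*Rad23b*) and 0.12 (*Xpc*); and for unsplit reads −0.04 (*Ddb2*), −0.01 (*Ddb1*), 0.10 (*Rad23b*) and −0.62 (*Xpc*). With limma, *Ddb2* intron 5 was −0.00; at 3′ junctions *Ddb2* intron 5 was −0.17, *Fance* intron 2 −0.09, *Fance* per gene −0.43, *Xpc* per gene 0.22, *Rad23b* spliced reads −0.01, and unsplit reads of *Ddb1* 0.04 and *Xpc* 0.33. With separate scaling *Ddb2* intron 5 was −0.09, *Fance* per gene −0.02 and *Rad23b* per gene −0.06. With the best covered intron, spliced reads were −0.00 for *Ddb2* and 0.12 for *Ercc1*; with introns of any library *Fance* was −0.15; with TMM on unsplit reads *Rad23b* was −0.03. Leaving out each library gave ranges of −0.00 to 0.88 (*Rad23b* intron 8), −0.82 to 0.85 (*Ddb2* intron 5) and −0.88 to 5.29 (*Fance* intron 2); per gene −0.70 to 0.21 (*Ddb2*), −0.43 to 0.75 (*Fance*), −0.20 to 0.08 (*Ddb1*) and −0.06 to 0.23 (*Rad23b*); for spliced reads −0.02 to 0.40 (*Ddb2*), −0.42 to 0.06 (*Ercc1*), −0.03 to 0.06 (*Rad23b*) and −0.07 to 0.27 (*Xpc*); and for unsplit reads −0.37 to 0.27 (*Ddb2*), −0.46 to 0.36 (*Ddb1*) and −0.02 to 0.22 (*Rad23b*). Of the tested values under all alternatives, 330 kept direction and side of the threshold, 43 lost the call, 4 gained it and 36 changed sign. Of the counts of calls, 60 were equal to the main count, 13 differed by up to 1.5 times and 13 by more, or between 0 and a call; 18 long-read levels stayed within their counting interval.

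Deviations of same-numbered libraries correlated at 0.0109 over genes and 0.00846 over introns, with 2 pairs. Such a correlation cannot show a shift that all genes or introns share. Split reads at 5′ junctions numbered 16012286 (control) and 14978479 (knockdown) in replicate 1, and 10640247 and 10556187 in replicate 2. Over all introns tested, the replicate block raised the number called lower from 1084 to 1580. Whether same-numbered libraries were handled together was not tested. With the replicate block, 7 introns and 3 genes were called lower and 2 genes had fewer spliced reads; 1 gene, *Fanca*, had more unsplit reads (0.64, edgeR adjusted p = 1.86e-05). Few listed introns and few reads limit *Ercc1* and *Fance*, and depth limits the long reads of all genes but *Ddb1* and *Rad23b*. An exon on the same strand touches 9 of the 14 *Ercc1* introns and 15 of the 19 *Fance* introns of GENCODE M21, and such introns were hardly ever listed.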
